A study of Saccharomyces cerevisiae with 8 samples.

Results

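Transcript levels of 10 budding yeast genes of serine synthesis, glycine cleavage and folate one-carbon metabolism were compared between 4 strains grown on glycerol. The genes were taken by name: SER1, SER2, SER3 and SER33 for serine synthesis, SHM1 and SHM2 for the exchange of serine and glycine, GCV1, GCV2 and GCV3 for glycine cleavage, and MTD1 for the folate pool. Each of the 10 matched 1 probe set, out of 5498 probe sets paired with 1 yeast gene. No measured value entered the choice of the rule, but it was made with earlier results of these arrays known.

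The arrays fell into 4 groups of 2, from separate experiments and cultures. Those labelled A880STM1K are described as A880 transformed with STM1 carrying R237K, numbered as the labels number it. Those labelled A880STM1 are described as A880 transformed with unaltered STM1, whose protein binds ribosomes. A880 is BY4741 with POP2 deleted, POP2 being a nuclease subunit of the CCR4-NOT complex, which shortens messenger RNA tails. BY4741 is the wild type strain of the study and a widely used laboratory line. All cultures were first grown in synthetic medium with 2% glucose until the optical density was 1, washed, diluted into 2% glycerol, and collected 12 hours later at a density of 0.4 to 0.8. The sources used here do not give how STM1 was carried and expressed, or how many transformants each strain stands for. Glycerol is a carbon source that yeast must respire.

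Yeast makes serine from the glycolytic intermediate 3-phosphoglycerate, and serine hydroxymethyltransferases split serine into glycine and a one-carbon unit bound to tetrahydrofolate. The mitochondrial glycine cleavage complex releases a further one-carbon unit from glycine, and these units feed the synthesis of purines, thymidylate and methionine. In yeast, the glycine cleavage genes, SHM2 and MTD1 are known targets of the activators Bas1 and Pho2, which also act on purine synthesis genes. SER3 is known to be repressed when serine is plentiful, through transcription of a noncoding RNA across its promoter.

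The strain labels were checked first on the genes they name. POP2 (YNR052C) gave 255 and 176 signal units on arrays labelled A880STM1K, 181 and 286 on those labelled A880STM1, 0.221 and 0.452 on A880 arrays, and 883 and 814 on BY4741 arrays. POP2 was thus detected on the 4 arrays of the transformed strains, which their labels describe as lacking it, so every direction drawn below from those arrays is that of the labels. STM1 (YLR150W) gave 8697 and 8143 units on arrays labelled A880STM1K, 9441 and 5027 on those labelled A880STM1, 2960 and 3096 on A880 arrays, and 2043 and 2566 on BY4741 arrays. Background levels were 5.15 to 8.40 units, and 99.5% to 99.9% of the yeast probe sets exceeded them on a given array. The median absolute log2 difference between replicates over all tested probe sets was 0.39 for A880STM1K, 0.47 for A880STM1, 0.12 for A880 and 0.14 for BY4741.

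All 10 genes were above background on all 8 arrays, with signals from 229 to 8174 units. A signal unit is the deposited probe set intensity, scaled by the authors to a common mean per array, so a level is compared across arrays for 1 gene and never between genes. Since each array started from the same amount of RNA, fewer cells of a kind and less RNA per cell cannot be told apart. Changes below are log2 values ± SE from a limma fit over all arrays and all tested probe sets, with Benjamini-Hochberg adjusted p-values, and a gene rose or fell where that p was below 0.05. Each group has 2 arrays throughout, and signals are given for replicate 1 and then replicate 2. In fits with 1 array left out, the share of all tested probe sets called changed too. Counts from such fits are therefore not read as particular to these genes.

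**Figure D1:**
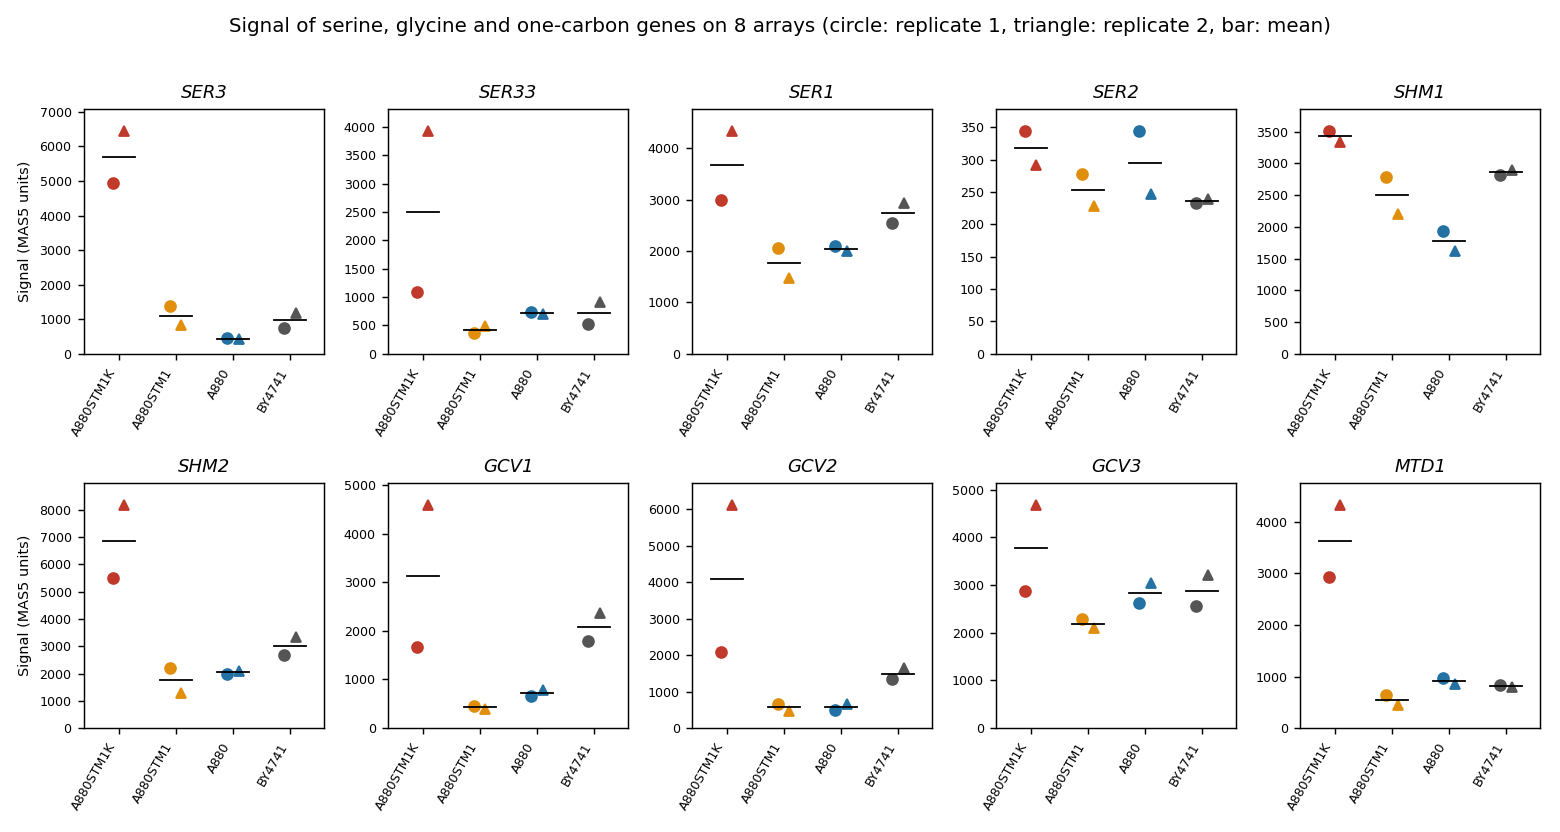
Signal in MAS5 units (linear axis from 0, own scale per gene) of the 10 genes on each array, with strains labelled A880STM1K, A880STM1, A880 and BY4741 from left to right, replicate 1 as a circle, replicate 2 as a triangle and the group mean as a bar. The A880STM1K arrays are the highest for SER3, SER33, SER1, SHM1, SHM2, GCV2 and MTD1, while for GCV1 they stand on either side of the BY4741 pair.

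The clearest pattern was a higher level of most of these genes on the arrays labelled A880STM1K. Against A880STM1, 8 of the 10 rose and 0 fell, while 17.9% of all 5496 tested probe sets rose and 17.1% fell. Against A880, 8 of the 10 rose and 0 fell, with 19.1% of all tested probe sets rising and 28.0% falling. Against BY4741, 5 of the 10 rose and 0 fell, with 21.2% of all tested probe sets rising and 28.3% falling. SER3, SER33, SHM2, GCV2 and MTD1 rose in all 3 of these comparisons, which share the A880STM1K arrays. The median change of the 10 genes was log2 2.14 against A880STM1, 1.62 against A880 and 0.80 against BY4741, beside 0.097, -0.17 and -0.11 for all tested probe sets.

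**Figure D2:**
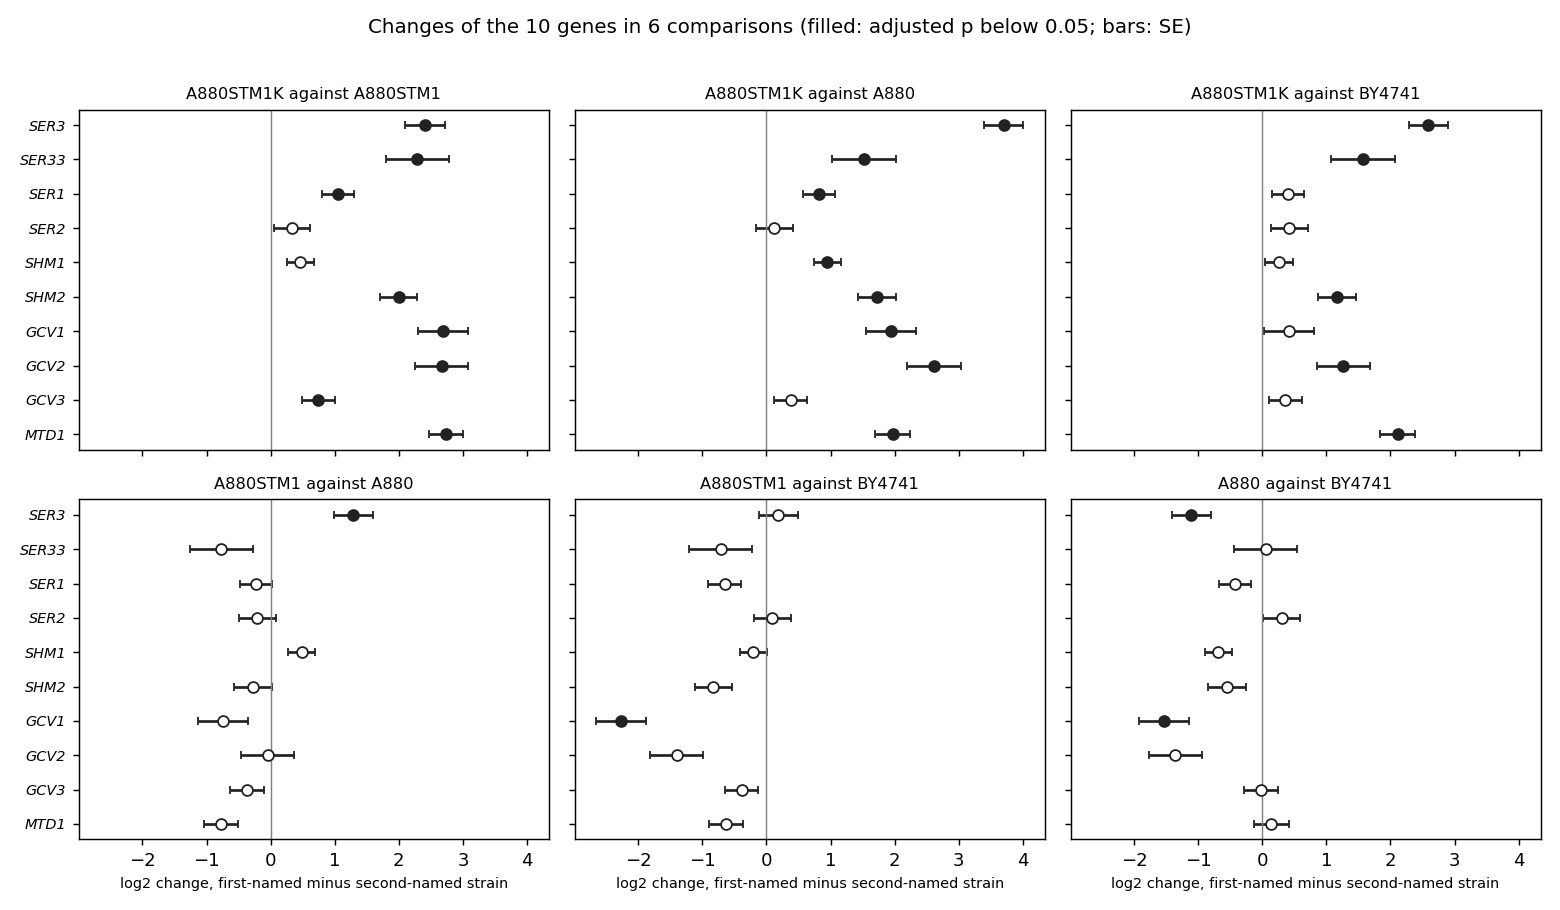
Log2 change of each gene (horizontal axis, first-named minus second-named strain) with its SE as a bar, in 6 panels for the 6 comparisons; filled points have an adjusted p below 0.05. The 3 upper panels, with A880STM1K first, hold 21 filled points, all to the right of 0, and the 3 lower panels hold 4.

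Serine synthesis begins with 3-phosphoglycerate dehydrogenase, for which yeast has a pair of isoenzymes encoded by SER3 and SER33. SER3 (YER081W) gave 4941 and 6449 units on arrays labelled A880STM1K, 1374 and 823 on those labelled A880STM1, 446 and 423 on A880 arrays, and 735 and 1192 on BY4741 arrays. The A880STM1K pair lay far above all other arrays, the A880 pair lay below all others, and the A880STM1 and BY4741 pairs overlapped. The rise of SER3 in A880STM1K was log2 2.41 ± 0.31 against A880STM1 (adjusted p = 0.000315). Against A880 it was log2 3.70 ± 0.31 (adjusted p = 1.91e-05), which placed SER3 at rank 26 of 5496 probe sets by size of rise. Against BY4741 it was log2 2.59 ± 0.31 (adjusted p = 0.000113). In A880STM1, SER3 rose against A880 by log2 1.29 ± 0.31 (adjusted p = 0.0203), and in A880 it fell against BY4741, at log2 -1.11 ± 0.31 (adjusted p = 0.0379). Both of these smaller calls were lost in some fits with 1 array left out, which leave fewer degrees of freedom. The rise in A880STM1 lost its call when A880STM1 replicate 1 was left out (log2 0.92, adjusted p = 0.138), and likewise for A880 replicate 1 (log2 1.33, adjusted p = 0.104) and for A880 replicate 2 (log2 1.25, adjusted p = 0.125). The fall in A880 was lost without any 1 of its 4 arrays, at log2 -1.15 without A880 replicate 1, -1.07 without A880 replicate 2, -1.46 without BY4741 replicate 1 and -0.76 without BY4741 replicate 2 (adjusted p = 0.15, 0.205, 0.0713 and 0.287). It was also lost with equal array medians (adjusted p = 0.0637) and with no intensity trend (adjusted p = 0.0559).

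SER33 (YIL074C) gave 1085 and 3934 units on arrays labelled A880STM1K, 361 and 496 on those labelled A880STM1, 741 and 700.3 on A880 arrays, and 529 and 912 on BY4741 arrays. The 2 A880STM1K arrays were the highest of the 8 but far apart from each other. SER33 rose in A880STM1K by log2 2.29 ± 0.50 against A880STM1 (adjusted p = 0.00561), 1.52 ± 0.50 against A880 (adjusted p = 0.0278) and 1.57 ± 0.50 against BY4741 (adjusted p = 0.0226). Without A880STM1K replicate 2 the change was log2 1.36 against A880STM1 (adjusted p = 0.0172), 0.59 against A880 (adjusted p = 0.192) and 0.64 against BY4741 (adjusted p = 0.16). The calls were also lost without A880STM1 replicate 1 (log2 2.06, adjusted p = 0.0681), without A880 replicate 1 (log2 1.56, adjusted p = 0.0647), without A880 replicate 2 (log2 1.48, adjusted p = 0.0768) and without BY4741 replicate 1 (log2 1.18, adjusted p = 0.132), each in the comparison with that strain. With only the 4 arrays compared, the calls against A880 and BY4741 were lost (adjusted p = 0.103 and 0.101). The isoenzymes differed in A880 arrays: for SER3 both lay below the BY4741 arrays, and for SER33 both lay between the BY4741 arrays. The difference between the isoenzymes' changes was not tested, and hybridisation of each transcript to its paralog's probe set was not tested.

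The remaining steps of serine synthesis are run by Ser1, the phosphoserine transaminase, and Ser2, the phosphoserine phosphatase. SER1 (YOR184W) gave 2993 and 4337 units on arrays labelled A880STM1K, 2063 and 1465 on those labelled A880STM1, 2091 and 1995 on A880 arrays, and 2546 and 2937 on BY4741 arrays. SER1 was highest on the A880STM1K pair, next on the BY4741 pair, and lowest on the A880 and A880STM1 pairs, which overlapped. It rose in A880STM1K by log2 1.05 ± 0.25 against A880STM1 (adjusted p = 0.00920) and 0.82 ± 0.25 against A880 (adjusted p = 0.0214). The first call was lost without A880STM1 replicate 2 (log2 0.80, adjusted p = 0.0527). The second was lost without A880STM1K replicate 2, at log2 0.55 (adjusted p = 0.0988), and without either A880 array, at log2 0.85 without replicate 1 and 0.79 without replicate 2 (adjusted p = 0.0921 and 0.118). SER2 (YGR208W) gave 344 and 292 units on arrays labelled A880STM1K, 278 and 229 on those labelled A880STM1, 344 and 247 on A880 arrays, and 233 and 239 on BY4741 arrays. It spanned only 1.5-fold over the 8 arrays, the narrowest range of the 10 genes beside 15.3-fold for SER3, and passed the test in 0 of 6 comparisons.

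Serine hydroxymethyltransferase exists in yeast as the mitochondrial Shm1 and the cytosolic Shm2. SHM2 (YLR058C) gave 5520 and 8174 units on arrays labelled A880STM1K, 2215 and 1281 on those labelled A880STM1, 1970 and 2108 on A880 arrays, and 2665 and 3352 on BY4741 arrays. The order of the pairs was A880STM1K, BY4741, and then A880 and A880STM1, which overlapped. SHM2 rose in A880STM1K by log2 1.996 ± 0.29 against A880STM1 (adjusted p = 0.000678), 1.72 ± 0.29 against A880 (adjusted p = 0.00111) and 1.17 ± 0.29 against BY4741 (adjusted p = 0.00752). The last call was lost without BY4741 replicate 1 (log2 1.00, adjusted p = 0.0636). SHM1 (YBR263W) gave 3510 and 3338 units on arrays labelled A880STM1K, 2783 and 2208 on those labelled A880STM1, 1938 and 1617 on A880 arrays, and 2814 and 2898 on BY4741 arrays. Its pairs did not overlap, and their order was A880STM1K, BY4741, A880STM1 and A880. Among neighbours in that order, the change was log2 0.26 ± 0.21 for A880STM1K against BY4741 (adjusted p = 0.334), -0.20 ± 0.21 for A880STM1 against BY4741 (adjusted p = 0.511) and 0.49 ± 0.21 for A880STM1 against A880 (adjusted p = 0.116). The rise that passed for SHM1 was that of A880STM1K against A880, log2 0.95 ± 0.21 (adjusted p = 0.00443), and leaving out A880 replicate 2 ended that call (log2 0.82, adjusted p = 0.0711).

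The glycine cleavage complex is built from Gcv2, the P protein that decarboxylates glycine, Gcv3, the lipoyl-bearing H protein, Gcv1, the T protein that passes the one-carbon unit to tetrahydrofolate, and the L protein Lpd1, which is shared with other complexes. GCV1 (YDR019C) gave 1663 and 4584 units on arrays labelled A880STM1K, 457 and 401 on those labelled A880STM1, 656 and 779 on A880 arrays, and 1794 and 2368 on BY4741 arrays. The A880STM1K arrays stood on either side of the BY4741 pair, and both pairs lay above those of A880 and A880STM1. GCV1 rose in A880STM1K by log2 2.69 ± 0.39 against A880STM1 (adjusted p = 0.000643) and 1.95 ± 0.39 against A880 (adjusted p = 0.00257). Without A880STM1K replicate 2 these were log2 1.96 (adjusted p = 0.00103) and 1.22 (adjusted p = 0.00626), and without replicate 1 they were log2 3.42 (adjusted p = 0.000163) and 2.68 (adjusted p = 0.000267). In A880STM1, GCV1 fell against BY4741, at log2 -2.27 ± 0.39 (adjusted p = 0.00695), at rank 19 of 5496 by size of fall. In A880 it fell against BY4741, at log2 -1.53 ± 0.39 (adjusted p = 0.0284).

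These falls of GCV1 lost their call in some fits with 1 array left out, which leave fewer degrees of freedom. The fall in A880STM1 was lost without A880STM1 replicate 1 (log2 -2.36, adjusted p = 0.0904) or BY4741 replicate 2 (log2 -2.07, adjusted p = 0.0553). The fall in A880 was lost without any 1 of the 4 arrays, at log2 -1.40 without A880 replicate 1, -1.65 without A880 replicate 2, -1.73 without BY4741 replicate 1 and -1.33 without BY4741 replicate 2 (adjusted p = 0.135, 0.10, 0.0953 and 0.158).

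GCV2 (YMR189W) gave 2083 and 6116 units on arrays labelled A880STM1K, 659 and 479 on those labelled A880STM1, 506 and 667 on A880 arrays, and 1342 and 1643 on BY4741 arrays. The order of the pairs was A880STM1K, BY4741, and then A880STM1 and A880, which overlapped. GCV2 rose in A880STM1K by log2 2.67 ± 0.42 against A880STM1 (adjusted p = 0.000983), 2.62 ± 0.42 against A880 (adjusted p = 0.000777) and 1.27 ± 0.42 against BY4741 (adjusted p = 0.0278). The 2 A880STM1K arrays again differed widely, and without replicate 2 the changes were log2 1.89 (adjusted p = 0.00204), 1.84 (adjusted p = 0.00194) and 0.49 (adjusted p = 0.194). Without replicate 1 they were log2 3.44, 3.40 and 2.04 (adjusted p = 0.000266, 0.000181 and 0.000980). The call against BY4741 was also lost without BY4741 replicate 1 (log2 1.12, adjusted p = 0.115), without BY4741 replicate 2 (log2 1.41, adjusted p = 0.0558), with quantile normalization (log2 1.22, adjusted p = 0.0545) and with only the 4 arrays compared (adjusted p = 0.0973). Against BY4741, GCV2 stood at log2 -1.40 ± 0.42 in A880STM1 (adjusted p = 0.0537) and -1.35 ± 0.42 in A880 (adjusted p = 0.0553), with pairs that did not overlap but p-values just above the threshold. With quantile normalization the value in A880 was log2 -1.58 (adjusted p = 0.0411). With only the 4 arrays compared it was -1.35 (adjusted p = 0.000941), where 54.4% of all tested probe sets were called. It did not pass in A880 with equal array medians (log2 -1.47, adjusted p = 0.0834) or with no intensity trend (adjusted p = 0.0769). With 1 array left out it lay between log2 -1.15 and -1.55. In A880STM1 the value with only the 4 arrays compared was log2 -1.40 (adjusted p = 0.0125), where 11% of all tested probe sets were called. It did not pass with quantile normalization (log2 -1.22, adjusted p = 0.103) or equal array medians (log2 -1.13, adjusted p = 0.166). No intensity trend gave adjusted p = 0.0752, and leaving 1 array out gave log2 -1.17 to -1.63.

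GCV3 (YAL044C) varied less than GCV1 and GCV2, at 2877 and 4672 units on arrays labelled A880STM1K, 2278 and 2100 on those labelled A880STM1, 2619 and 3047 on A880 arrays, and 2558 and 3204 on BY4741 arrays. The A880 and BY4741 pairs overlapped each other and the lower A880STM1K array, and the A880STM1 pair was the lowest. GCV3 rose in A880STM1K against A880STM1 by log2 0.75 ± 0.26 (adjusted p = 0.0453). That call was lost with equal array medians (log2 0.71, adjusted p = 0.131), with only the 4 arrays compared (adjusted p = 0.168), with no intensity trend (adjusted p = 0.0699), and without A880STM1K replicate 2 (log2 0.40, adjusted p = 0.189). It was also lost without either A880STM1 array, at log2 0.80 without replicate 1 and 0.69 without replicate 2 (adjusted p = 0.0908 and 0.144). LPD1, the gene of the L protein, gave 3790 and 4912 units on arrays labelled A880STM1K, 4402 and 4578 on those labelled A880STM1, 3551 and 3955 on A880 arrays, and 3188 and 3181 on BY4741 arrays. LPD1 was called in 0 of 6 comparisons, so over the 4 subunits it was GCV1 and GCV2 that carried the larger changes.

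MTD1 encodes the cytosolic NAD-dependent methylenetetrahydrofolate dehydrogenase, which oxidises one-carbon units on the folate carrier. MTD1 (YKR080W) gave 2935 and 4326 units on arrays labelled A880STM1K, 650 and 439 on those labelled A880STM1, 963 and 862 on A880 arrays, and 845 and 806 on BY4741 arrays. No pairs overlapped: A880STM1K was highest, A880 and BY4741 lay close together, and A880STM1 was lowest. MTD1 rose in A880STM1K by log2 2.74 ± 0.27 against A880STM1 (adjusted p = 7.37e-05), at rank 17 of 5496 by size of rise. It rose by log2 1.97 ± 0.27 against A880 (adjusted p = 0.000329) and by 2.11 ± 0.27 against BY4741 (adjusted p = 0.000163). The rises of MTD1 and SER3 in A880STM1K passed the test under each of the 12 alternatives run per comparison, left-out arrays included. For A880STM1 against A880, MTD1 stood at log2 -0.77 ± 0.27 (adjusted p = 0.0628).

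The comparison of A880STM1K with A880STM1 asks what R237K changes relative to unaltered STM1. All 10 genes were higher in A880STM1K with pairs that did not overlap, beside 32.5% of all tested probe sets higher in this way and 27.1% lower. GCV1, GCV2, MTD1 and SER3 changed most, by 6.45-fold, 6.35-fold, 6.67-fold and 5.31-fold, and SER2 and SHM1 did not pass, at log2 0.33 ± 0.29 (adjusted p = 0.392) and 0.47 ± 0.21 (adjusted p = 0.112). With 1 of the 4 arrays left out, between 6 and 8 of the 10 genes were called. STM1 itself differed between these strains by log2 0.29 ± 0.28 (adjusted p = 0.454) and POP2 by -0.11 ± 0.45 (adjusted p = 0.876). URA3 fell, at 1850 and 1384 units on arrays labelled A880STM1K against 4956 and 4315 on those labelled A880STM1 (log2 -1.53 ± 0.42, adjusted p = 0.0168). R237K itself is taken from the labels and was not measured. Whether the lower URA3 follows from R237K or is a separate difference between the strains was not tested. The part of R237K therefore cannot be told apart.

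For A880STM1K against A880, 8 of the 10 genes were higher with pairs that did not overlap, and 0 were lower, beside 32.6% of all tested probe sets higher and 44.8% lower. The exceptions were SER2 and GCV3, at log2 0.12 ± 0.29 (adjusted p = 0.744) and 0.38 ± 0.26 (adjusted p = 0.249). With 1 array left out, 5 to 9 genes were called, with 5 without A880 replicate 2. Setting all array medians equal moved the median of all tested probe sets from log2 -0.17 to 0.18. Relative to it the median of the 10 genes was 1.79 under both scalings. That likeness was fixed in advance, since this scaling shifts all probe sets of an array alike. For A880STM1K against BY4741, 8 of the 10 genes were higher with pairs that did not overlap and 0 were lower, beside 33.8% higher and 42.2% lower over all tested probe sets. POP2, STM1 and URA3 also differed there, by log2 -2.00 ± 0.45, 1.88 ± 0.28 and 9.685 ± 0.42 (adjusted p = 0.00422, 0.000439 and 2.85e-07). The parts of these differences cannot be told apart. SER1, SER2, SHM1, GCV1 and GCV3 did not pass, with values between log2 0.26 and 0.42. The 5 calls in that comparison became 2 without BY4741 replicate 1, 3 without A880STM1K replicate 2 and 3 with only the 4 arrays compared.

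Setting A880STM1 against A880 addresses the effect of unaltered STM1, but the arrays also differ in POP2. POP2 was detected on those labelled A880STM1 (log2 9.49 ± 0.45, adjusted p = 2.16e-06), so the parts of STM1 and POP2 cannot be told apart. The same holds for A880STM1K against A880, where URA3 differed as well (log2 -1.73 ± 0.42, adjusted p = 0.00667). In A880STM1 against A880, SER3 was the 1 gene of the 10 that rose and 0 fell, beside 6.82% of all tested probe sets rising and 13.1% falling. The change of SER3 was log2 0.92 without A880STM1 replicate 1 and 1.66 without A880STM1 replicate 2. It was log2 1.33 without A880 replicate 1 and 1.25 without A880 replicate 2. Pairs that did not overlap were higher in A880STM1 for SER3 and SHM1 and lower for SER33, GCV1, GCV3 and MTD1, beside 23.3% higher and 47.9% lower over all tested probe sets. The median of the 10 genes was log2 -0.25, and 0.14 with equal array medians. Relative to all tested probe sets it was 0.019 and 0.020, a value that this scaling cannot change. Between A880STM1 and BY4741, POP2, STM1 and URA3 differed by log2 -1.90 ± 0.45, 1.59 ± 0.28 and 11.2 ± 0.42 (adjusted p = 0.027, 0.00854 and 1.24e-07). The parts of these differences cannot be told apart. Of the 10 genes, GCV1 fell in A880STM1 against BY4741 and 0 rose, beside 6.30% of all tested probe sets falling and 5.40% rising. That count was 0 without A880STM1 replicate 1 or BY4741 replicate 2. Pairs lay apart for 8 genes, each lower in A880STM1, with SER2 and SER3 overlapping, beside 44.3% lower and 22.3% higher over all tested probe sets.

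The comparison of A880 with BY4741 asks which transcripts differ when POP2 is missing. SER3 and GCV1 fell and 0 of the 10 rose, beside 6.19% of all tested probe sets falling and 7.71% rising. URA3, needed to make uracil, gave 5062 and 5537 units on A880 arrays and 3.32 and 1.14 on BY4741 arrays, so the strains differ in more than POP2, and the parts of these differences cannot be told apart. Pairs lay apart and lower in A880 for SER1, SER3, SHM1, SHM2, GCV1 and GCV2, and apart and higher for SER2 and MTD1, beside 37.7% lower and 41.5% higher over all tested probe sets. SHM1 was close to the threshold at log2 -0.69 ± 0.21 (adjusted p = 0.0536). The count of 2 was 0 without any 1 of the 4 arrays and 6, all lower, with only those 4 arrays in the fit, where 54.4% of all tested probe sets were called. The median of the 10 genes was log2 -0.49, or -0.50 relative to all tested probe sets.

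Replicates differed more for these genes than for the array as a whole in 3 of the 4 groups. Their median absolute log2 difference was 0.56 in A880STM1K, 0.46 in A880STM1, 0.19 in A880 and 0.31 in BY4741. Replicate 2 gave the higher signal for 8 of the 10 genes in A880STM1K, 1 in A880STM1, 4 in A880 and 9 in BY4741. Over all tested probe sets, replicate 2 was higher for 42.6%, 67.5%, 42.1% and 50.1% in the same order. The part of these replicate differences in the results beyond the left-out values was not tested.

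**Figure D3:**
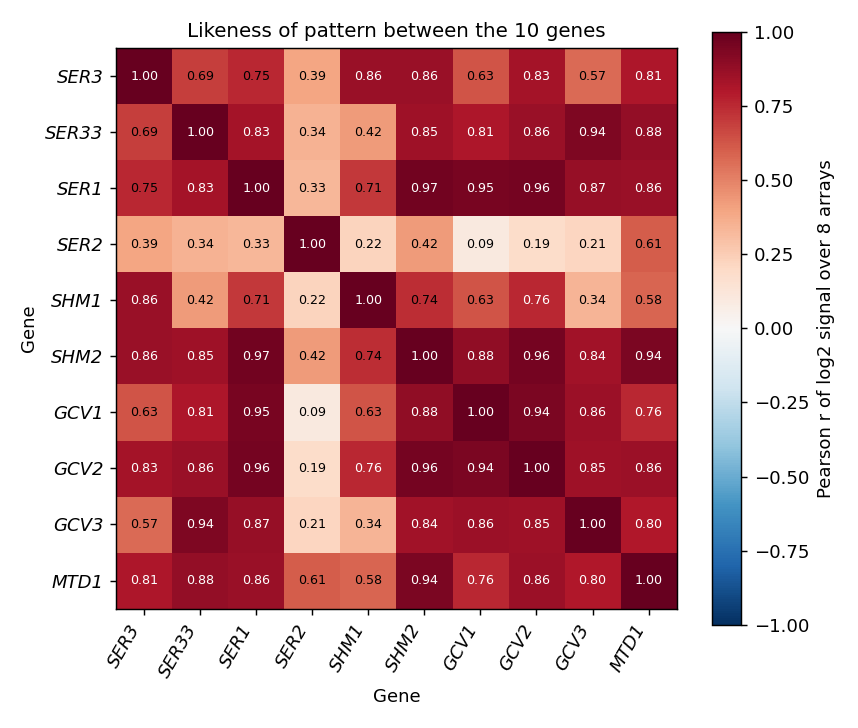
Pearson r of log2 signal over the 8 arrays for each pair of the 10 genes, as colour and as a printed value. SER1, SHM2, GCV1 and GCV2 form the tightest block, and the row of SER2 holds most of the lowest values.

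Over the 8 arrays, SER1, SHM2 and GCV2 followed each other most closely. The likeness was measured as Pearson r of log2 signal with every other tested probe set, over 8 arrays that form 4 pairs of replicates, and it is a description only. SHM2 was the probe set most like SER1 (r = 0.97) and also the one most like GCV2 (r = 0.96), and SER1 was the one most like GCV1 (r = 0.95). Outside the 10 genes, the probe set most like SHM2 was that of ADE13 (r = 0.97), which was also the one most like MTD1 (r = 0.985). The most alike to SER3 was ATF2 (r = 0.985), to SER33 MET5 (r = 0.98), to GCV3 GVP36 (r = 0.97), to SHM1 YOL097W-A (r = 0.99) and to SER2 PUG1 (r = 0.90). SER3 and SER33 had r = 0.69 with each other, and SER2 had r = 0.09 with GCV1, the lowest among the 10 genes.

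Other genes of folate and glycine metabolism were called in both directions on the arrays labelled A880STM1K, as were probe sets in general. Of 19 such genes outside the 10, 6 rose and 2 fell against A880STM1, or 31.6% and 10.5%, beside 17.9% and 17.1% of all tested probe sets. Against A880, 6 rose and 6 fell, or 31.6% each, beside 19.1% and 28.0%. Against BY4741, 6 rose and 4 fell, or 31.6% and 21.1%, beside 21.2% and 28.3%. No more is read from these counts. With 1 array left out these became 3 to 6 rising and 4 to 5 falling against A880, 4 to 8 and 2 to 3 against A880STM1, and 3 to 7 and 2 to 5 against BY4741. The total against BY4741 was 6 without BY4741 replicate 1 and 5 without BY4741 replicate 2, and that against A880STM1 was 5 with only the 4 arrays compared. In A880STM1, 2 rose and 6 fell against A880, or 10.5% and 31.6%, beside 6.82% and 13.1% of all tested probe sets. Against BY4741, 0 rose and 1 fell in A880STM1, beside 5.40% and 6.30%. In A880, 2 rose and 0 fell against BY4741, beside 7.71% and 6.19%. Of those called in A880STM1 against A880, FOL2, the first enzyme of folate synthesis, rose by log2 1.00 ± 0.21 (adjusted p = 0.0137), while FOL1, a later enzyme of folate synthesis, stood at log2 -1.26 ± 0.25 and the dihydrofolate reductase gene DFR1 at -1.63 ± 0.34 (adjusted p = 0.0110 and 0.0130).

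MET13, the methylenetetrahydrofolate reductase that commits one-carbon units to methionine, gave 3518 and 4002 units on arrays labelled A880STM1K, 697 and 708 on those labelled A880STM1, 596 and 543 on A880 arrays, and 929.8 and 708 on BY4741 arrays. The A880STM1K arrays stood well above the other 6, with a rise of log2 2.42 ± 0.22 against A880STM1 (adjusted p = 5.74e-05). ADE3, the cytosolic trifunctional enzyme that interconverts folate one-carbon units, rose in A880STM1K against A880 by log2 1.98 ± 0.24 (adjusted p = 0.000197). It also rose in A880STM1 against A880, by log2 0.99 ± 0.24 (adjusted p = 0.0217). FOL1 rose in A880STM1K against A880STM1 by log2 1.45 ± 0.25 (adjusted p = 0.00173).

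CHA1 went the other way. It encodes the deaminase that breaks down serine and threonine and is known to be induced by them. CHA1 gave 45.5 and 26.6 units on arrays labelled A880STM1K, 297 and 297 on those labelled A880STM1, 717 and 708 on A880 arrays, and 1007 and 674 on BY4741 arrays. The A880STM1K pair was the lowest, still above background, the A880STM1 pair came next, and the A880 pair lay within the range of the BY4741 pair. In A880STM1K, CHA1 fell, at log2 -3.09 ± 0.33 against A880STM1 and -4.36 ± 0.33 against A880 (adjusted p = 0.000117 and 1.11e-05). AGX1, which makes glycine from glyoxylate, gave 246 and 417 units on arrays labelled A880STM1K, 1051 and 1512 on those labelled A880STM1, 1438 and 1471 on A880 arrays, and 876 and 1076 on BY4741 arrays. The A880STM1K arrays were the lowest of the 8, and AGX1 fell there against A880STM1, at log2 -1.98 ± 0.30 (adjusted p = 0.000728).

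**Figure D4:**
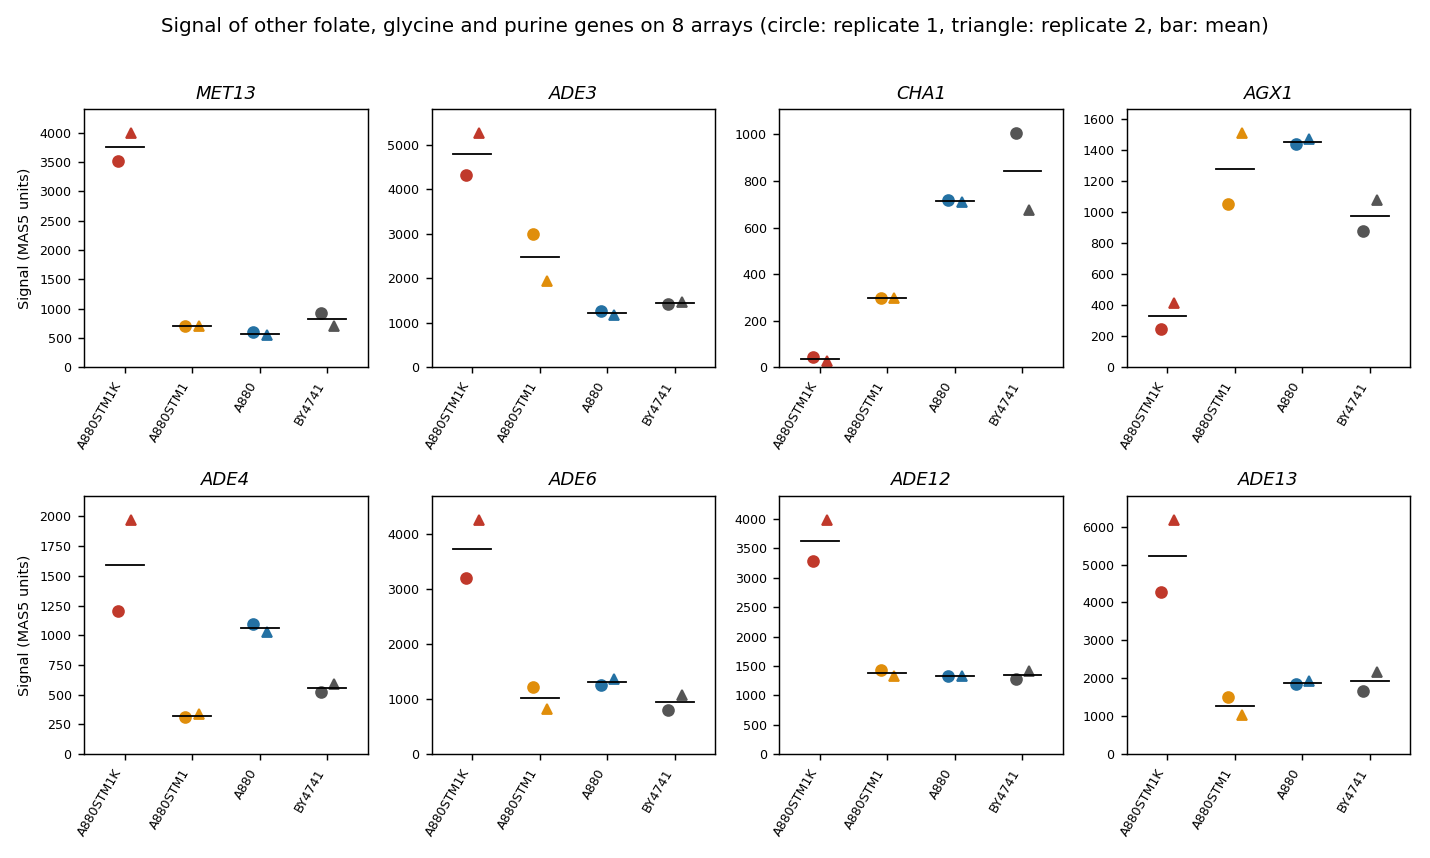
Signal in MAS5 units (linear axis from 0, own scale per gene) of 8 genes of folate, glycine and purine metabolism on each array, with symbols and strain order as for the 10 genes. MET13, ADE3, ADE4, ADE6, ADE12 and ADE13 are highest and CHA1 and AGX1 lowest on the A880STM1K arrays.

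Most measured genes of purine synthesis, a main user of folate one-carbon units, rose in A880STM1K. Of 10 listed genes, 9 had a probe set in the table used and ADE5,7 was not analysed here. Of the 9, 8 rose and 0 fell against A880STM1, 7 rose and 0 fell against A880, and 7 rose and 0 fell against BY4741, beside 17.9%, 19.1% and 21.2% of all tested probe sets rising. The medians of the 9 were log2 1.67, 1.34 and 1.48, beside 0.097, -0.17 and -0.11 for all tested probe sets. In A880STM1, 0 rose and 1 fell against A880, beside 6.82% and 13.1% of all tested probe sets. Against BY4741, 0 of the 9 were called in A880STM1, beside 5.40% rising and 6.30% falling. In A880, 1 rose and 0 fell against BY4741, beside 7.71% and 6.19%. ADE16 passed in 0 of the 3 A880STM1K comparisons. There, ADE4 did not pass against A880 (log2 0.54 ± 0.27, adjusted p = 0.118), and ADE8 did not pass against BY4741 (log2 0.28 ± 0.30, adjusted p = 0.470). With 1 array left out, the number that rose was 6 to 8, 5 to 8 and 7 in the same comparisons. ADE4, which catalyses the first committed step, gave 1208 and 1973 units on arrays labelled A880STM1K, 311 and 336 on those labelled A880STM1, 1096 and 1031 on A880 arrays, and 522 and 590 on BY4741 arrays. It rose in A880 against BY4741 by log2 0.94 ± 0.27 (adjusted p = 0.0403), and it fell in A880STM1 against A880, at log2 -1.72 ± 0.27 (adjusted p = 0.00323). Against A880STM1, ADE4 rose in A880STM1K by log2 2.26 ± 0.27 (adjusted p = 0.000203), ADE13, adenylosuccinate lyase, by 2.06 ± 0.27 (adjusted p = 0.000331), ADE6 by 1.88 ± 0.27 (adjusted p = 0.000530) and ADE12, adenylosuccinate synthase, by 1.40 ± 0.21 (adjusted p = 0.000678).

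The genes of the regulators themselves showed smaller differences. GCN4, the activator of amino acid synthesis whose protein level is set mainly by translation, gave 7288 and 6008 units on arrays labelled A880STM1K, 6290 and 5132 on those labelled A880STM1, 4569 and 5157 on A880 arrays, and 5318 and 5013 on BY4741 arrays. GCN4 and BAS1 were called in 0 of 6 comparisons. PHO2 fell in A880STM1K against A880, at log2 -0.84 ± 0.31 (adjusted p = 0.0453), and against BY4741, at log2 -0.88 ± 0.31 (adjusted p = 0.0358). Of all tested probe sets, 28.0% and 28.3% fell in these comparisons. In A880STM1, PHO2 stood at log2 -0.86 ± 0.31 against A880 and -0.90 ± 0.31 against BY4741 (adjusted p = 0.0708 and 0.0772). Between A880STM1K and A880STM1 it differed by log2 0.018 ± 0.31 (adjusted p = 0.97). Of the 3 genes for making or attaching lipoate, which Gcv3 carries, LIP2 and AIM22 rose in A880STM1K against A880STM1, by log2 1.13 ± 0.26 and 1.25 ± 0.30 (adjusted p = 0.00740 and 0.00879), beside 17.9% of all tested probe sets rising. The third, LIP5, stood at log2 -0.62 ± 0.23 (adjusted p = 0.0549). Against A880, LIP2 rose, beside 19.1% of all tested probe sets, and AIM22 stood at log2 0.09 ± 0.30 (adjusted p = 0.823). Against BY4741, LIP2 and AIM22 rose in A880STM1K by log2 1.765 ± 0.26 and 0.83 ± 0.30 (adjusted p = 0.000371 and 0.0392), beside 21.2% of all tested probe sets. AIM22 fell in A880STM1 against A880, at log2 -1.16 ± 0.30 (adjusted p = 0.0248), beside 13.1% falling.

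Of 5 enzymes that consume serine, 4 rose in A880STM1K against each of the other strains and 0 fell, beside 17.9%, 19.1% and 21.2% of all tested probe sets rising against A880STM1, A880 and BY4741. SES1, the seryl-tRNA synthetase, rose in A880STM1K by log2 1.04 ± 0.36 against A880STM1 (adjusted p = 0.0447), 1.92 ± 0.36 against A880 (adjusted p = 0.00173) and 2.65 ± 0.36 against BY4741 (adjusted p = 0.000232). It also rose in A880STM1 against BY4741, by log2 1.62 ± 0.36 (adjusted p = 0.021). That was the 1 call among the 5 there, beside 5.40% of all tested probe sets rising. In A880STM1 against A880, 0 of the 5 were called, beside 6.82% of all tested probe sets rising and 13.1% falling. In A880 against BY4741, 0 of the 5 were called, beside 7.71% rising and 6.19% falling. In A880STM1K, CHO1, phosphatidylserine synthase, rose by log2 1.04 ± 0.24 against A880STM1 (adjusted p = 0.00715), and CYS4, which joins serine to homocysteine, rose by 0.99 ± 0.25 (adjusted p = 0.0125). LCB2, a subunit of serine palmitoyltransferase, gave 2813 and 1255 units on arrays labelled A880STM1K, 724 and 942 on those labelled A880STM1, 1031 and 990.4 on A880 arrays, and 755 and 641 on BY4741 arrays. Its A880STM1K arrays were the highest of the 8 but differed widely, and it rose against A880STM1 by log2 1.19 ± 0.34 (adjusted p = 0.0207). With 1 array left out, 2 or 3 of the 5 rose against A880STM1, and 2 with equal array medians. Against A880 the left-out range was 3 to 4, and against BY4741 it was 2 to 4, with 2 without either BY4741 array.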

How the data were processed

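Each of 8 arrays received cRNA made from 10 µg of 1 culture's RNA by the standard Affymetrix method, per the labels' protocols. MAS5 gave the deposited intensity of each probe set, in linear units, per the submitters' processing notes, with no version or settings stated there. The mean after trimming 2% at each end was 500.15 to 500.26 on every array.

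All analysis was on log2 of these values. Background was the 90th percentile of the 1746 probe sets whose annotation matched no gene of the budding yeast reference set. The 5496 yeast probe sets above it on at least 2 arrays were tested. Group means over all 8 arrays were fitted with limma 3.58.1 in R 4.3.3 (eBayes with trend, 4 residual and a median of 6.56 prior degrees of freedom). P-values were adjusted by Benjamini-Hochberg within each of 6 contrasts, and an adjusted p below 0.05 was a call. All 10 members are named. A change is given for called genes, for those of log2 1 or more whose groups do not overlap, and for some others near the threshold or named as exceptions. From each further list up to 4 called genes per comparison are named, by smallest p. LPD1, GCN4, BAS1, ADE8, ADE16 and LIP5 were added, after their values were seen, to describe a complex, its regulators and exceptions. The change of ADE3 in A880STM1 and the uncalled changes of PHO2 were added in the same way. URA3 was added to the label checks likewise. Members and lists were chosen with earlier results of these data known. Alternatives were other scalings, a pseudocount of 16, other filters, no trend, a replicate block, only the 4 arrays compared and each array left out. The code was tested on simulated data. The number of arrays limits the precision. Sequences were not used here.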

Additional observations from a re-analysis of the deposited data

How the results depend on the processing

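Over the 25 calls of the 10 genes in 6 comparisons, 260 of 300 values under an alternative stayed called, 40 did not, and 0 changed sign. The counts of called genes for A880 against BY4741 were 2 in the report, 4 with quantile normalization, 1 with equal array medians, 1 with no intensity trend, 6 with only the 4 arrays compared and 0 with any 1 array left out. For A880STM1 against BY4741 the count of 1 was 2 with quantile normalization, also 2 with only the 4 arrays compared, and 0 to 1 with 1 array left out. The count for A880STM1K against BY4741 was 5, or 3 with only the 4 arrays compared and 2 to 7 with 1 array left out. With 1 array left out the count was 0 to 2 for A880STM1 against A880, 5 to 9 for A880STM1K against A880 and 6 to 8 for A880STM1K against A880STM1. A group left with 1 array was assumed to vary like the others. The cause of these differences was not tested, except that settings with fewer arrays leave fewer degrees of freedom. Of the 300 values, those with the pseudocount or another filter could hardly differ, as signals of 229 units or more lay far above background. The same alternatives for the further lists were chosen after seeing the data. Arrays with the same replicate number deviated together with r from 0.037 to 0.287 over the 6 pairs of groups, all above 0, but not all above 0.1, so the numbers were not taken as pairs. With the replicate number as a block, the count was 4 for A880 against BY4741 and 2 for A880STM1 against BY4741, with GCV2 at adjusted p = 0.0201 and 0.0212. The block left the other 4 counts as they were.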
